A study of Mus musculus with 10 samples.

Results

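Glycolysis and hypoxia response genes were followed in mouse T cell lymphomas driven by an NPM-ALK transgene. The set holds 34 genes in 2 groups, 14 glycolytic enzymes and 20 other genes that serve glucose uptake, lactate export and the response to low oxygen. A gene was taken from probe sets whose annotation gave it as the single symbol, and the probe set with the highest mean over all arrays stood for the gene. In this way 31 of the 34 genes were measured, of 19937 genes measured in all: 11 of the 14 enzymes and 20 of the 20 other genes. Gapdh was left out because its 11 probe sets carry several symbols, and Gpi1 and Eno1 were not matched. P4ha2 lay below the filter on dim probe sets (a mean log2 intensity of 6.35), so 30 of the 31 entered the test.

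The study compared 5 NPM-ALK mice with intact WASP and 5 NPM-ALK mice that lack WASP, all on a C57BL/6 background, with 1 array of a mediastinal tumour per mouse. NPM-ALK, the fusion kinase known from anaplastic large cell lymphoma, was thus carried by both groups, and no mouse was treated. WASP, encoded by Was, switches on branched actin growth in blood cells. Tumours arose at 4 to 5 months of age. The design text speaks of WASP-deficient females and males, but gives no counts. The transgene's promoter and each mouse's sex were not given in the sources used here. Levels are log2 of RMA intensities, and differences are WASP-deficient minus WASP-intact on that log2 scale. Levels of different genes come from different probes and were not set against each other.

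Glycolysis splits glucose into pyruvate in the cytosol, and lactate dehydrogenase then turns pyruvate into lactate, which leaves the cell through monocarboxylate transporters. Proliferating T cells and lymphomas use this route heavily even where oxygen is present. When oxygen is short, prolyl hydroxylases no longer mark the HIF proteins for destruction, and HIF with its partner ARNT binds short ACGTG or GCGTG motifs and activates glucose transporters, most glycolytic enzymes, angiogenic factors and mitophagy receptors. HIF1A activity is set mainly by protein stability, which an array does not measure.

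The tumours carried the marks of T cells: Cd3e lay between 12.06 and 12.59, Thy1 between 11.86 and 12.31 and Lat between 11.99 and 12.38. Was was lower in the WASP-deficient group, at 8.08 ± 0.13 against 9.22 ± 0.10 (log2 level, SD, n = 5 each), a log2 difference of -1.14 (SE 0.08, limma adjusted p = 0.00088). Cd2, a T cell adhesion receptor, divided the arrays across the genotypes. Its log2 level was 11.18 and 11.30 on WASP-intact arrays 4 and 5 and 11.52 on WASP-deficient array 1, the Cd2-high arrays, and 6.10 to 6.90 on the other 7, the Cd2-low arrays. Xist, which is transcribed from the inactive X chromosome of females, was at 11.52 to 11.90 on WASP-intact arrays 1, 2, 4 and 5, at 4.40 on WASP-intact array 3 and at 4.50 to 5.58 on the WASP-deficient arrays. None of the 5 WASP-deficient arrays thus had a high Xist level, although the design text mentions females. Whether the Xist level follows the sex of these mice was not tested.

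One tumour stood apart in these genes. On WASP-deficient array 4, which was singled out after its values were seen, 24 of the 31 genes had their highest level of the 10 arrays, 8 of the 11 enzymes and 16 of the 20 others. Of all 12670 genes tested, 17.2% were highest there, against 77.4% of the glycolysis and hypoxia genes, and 0 of the 31 were lowest there. A per-array mean was taken over genes after each gene was centred on its own mean, so that 0 is the average array. For the enzymes this mean was 0.47 on WASP-deficient array 4 and between -0.16 and 0.18 on the other 9. For the other genes it was 0.82 there and between -0.36 and 0.21 elsewhere. In bulk tumour RNA, fewer cells of a type and less RNA per cell cannot be told apart.

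**Figure D1:**
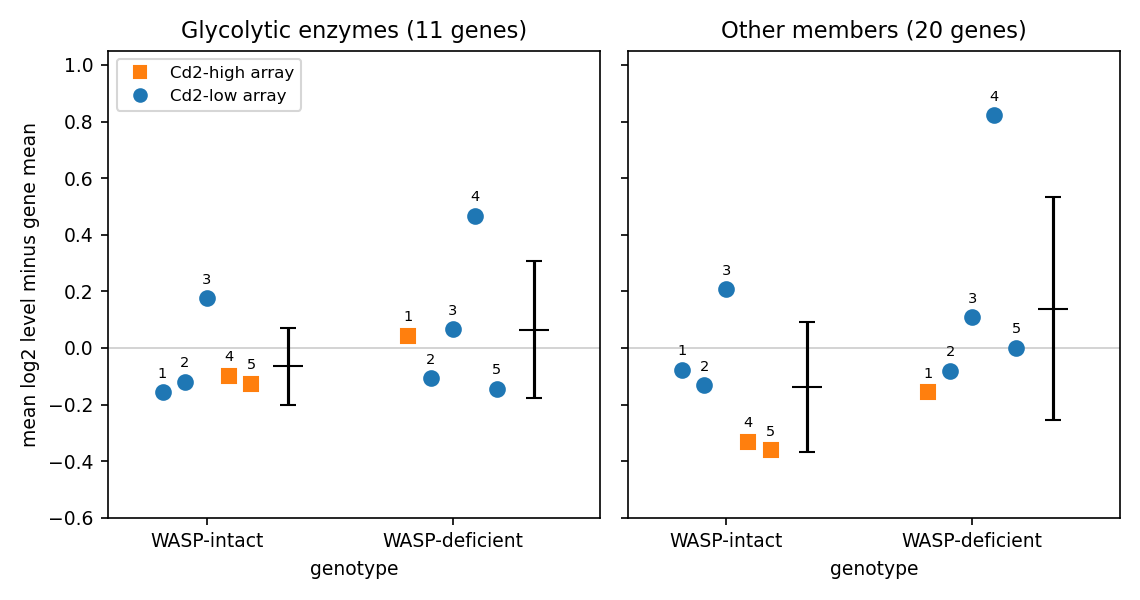
Mean centred log2 level of the 11 measured glycolytic enzymes and of the 20 other genes on each of the 10 arrays, by genotype and Cd2 set. WASP-deficient array 4 is highest in both, at 0.47 for the enzymes and 0.82 for the other genes, and the 3 Cd2-high arrays lie between -0.36 and -0.16 for the other genes.

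With that array left out, 10 of the 31 genes were highest on WASP-intact array 3 and 8 on WASP-deficient array 3, where 8.37% and 13.8% of all genes were highest among the same 9 arrays. WASP-intact array 3 had the second highest mean of both groups, 0.18 for the enzymes and 0.21 for the others. The tumours with high levels therefore came from both genotypes.

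**Figure D2:**
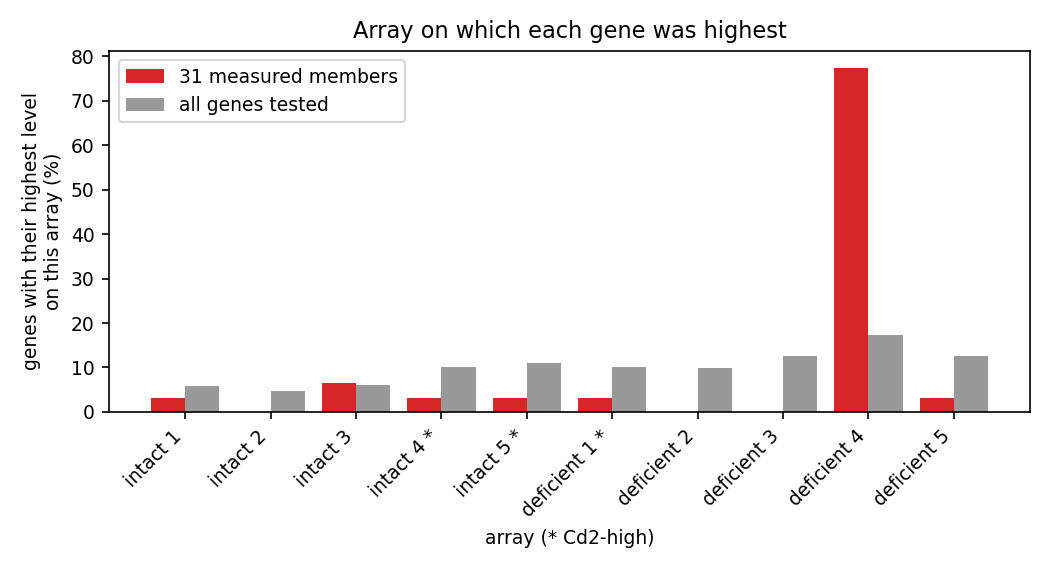
Share of genes, in percent, whose highest level of the 10 arrays fell on each array, for the 31 measured glycolysis and hypoxia genes and for all 12670 genes tested. WASP-deficient array 4 holds 77.4% of the former and 17.2% of the latter.

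The genes of the set differ in role, and promoters of 5 of them are shown, chosen by their values. Ankrd37 and Bnip3 stood furthest above the other arrays on WASP-deficient array 4, Slc16a3 had the smallest genotype p, and Pfkl and Pfkp are enzymes of a single step that took opposite sides of the Cd2 division. The sequences are the 250 bases before the RefSeq start in GRCm38.p6, on the gene's own strand, with ACGTG or GCGTG on either strand in capitals (adjoining or overlapping matches run together). Ankrd37 lies at chr8:45999851-46000100, minus strand, Bnip3 at chr7:138909507-138909756, minus strand, Slc16a3 at chr11:120948817-120949066, plus strand, Pfkl at chr10:78009808-78010057, minus strand, and Pfkp at chr13:6648772-6649021, minus strand.
Ankrd37: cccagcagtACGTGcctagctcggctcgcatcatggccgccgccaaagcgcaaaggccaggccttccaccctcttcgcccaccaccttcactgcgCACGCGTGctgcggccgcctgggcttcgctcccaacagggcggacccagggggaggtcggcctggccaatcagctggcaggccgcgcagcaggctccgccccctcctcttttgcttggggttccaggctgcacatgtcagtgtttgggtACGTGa
Bnip3: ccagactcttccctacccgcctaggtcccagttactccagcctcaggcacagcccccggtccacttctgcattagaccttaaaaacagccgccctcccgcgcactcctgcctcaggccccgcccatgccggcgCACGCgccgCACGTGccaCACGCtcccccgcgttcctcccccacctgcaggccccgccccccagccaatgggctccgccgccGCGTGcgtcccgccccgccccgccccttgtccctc
Slc16a3: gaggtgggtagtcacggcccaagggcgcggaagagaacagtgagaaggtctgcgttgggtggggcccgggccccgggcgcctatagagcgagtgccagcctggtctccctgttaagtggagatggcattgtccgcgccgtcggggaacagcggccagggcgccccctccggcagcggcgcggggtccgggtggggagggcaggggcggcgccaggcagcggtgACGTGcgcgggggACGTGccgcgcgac
Pfkl: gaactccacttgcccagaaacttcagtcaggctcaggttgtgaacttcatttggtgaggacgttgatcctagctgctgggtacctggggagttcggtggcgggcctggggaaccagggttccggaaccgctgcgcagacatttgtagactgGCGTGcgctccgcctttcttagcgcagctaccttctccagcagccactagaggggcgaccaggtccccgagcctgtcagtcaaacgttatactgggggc
Pfkp: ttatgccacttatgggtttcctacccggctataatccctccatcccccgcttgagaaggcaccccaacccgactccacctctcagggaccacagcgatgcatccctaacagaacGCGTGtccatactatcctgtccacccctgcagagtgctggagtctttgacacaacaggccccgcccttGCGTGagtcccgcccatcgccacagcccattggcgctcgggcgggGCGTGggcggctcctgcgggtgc

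The window held 4 matches in Ankrd37, 5 in Bnip3, 2 in Slc16a3, 3 in Pfkp and 1 in Pfkl. Both motifs are known as the core to which HIF binds, and other factors read the same letters. Of the 34 genes of the set, 31 had a listed promoter (not Slc2a3, Bnip3l or Ndrg1), and 29 of these had at least 1 match at any listed start (not Gpi1 or Tpi1), or 93.5%, against 59.9% of 10095 tested genes and 41.5% of all 27025 genes. A gene with more starts has more chances of a match, and counted per promoter the share was 36 of 46, or 78.3%, against 54.4% of 12811 promoters of tested genes. The median number of CG dinucleotides was 15 both in the 46 promoters of these genes and in those of the tested genes. A match describes the letters and not a site in use, and the set was partly drawn up from known HIF targets.

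Among the genes of glucose uptake and lactate export, 5 of 5 were highest on WASP-deficient array 4. Slc2a3, the glucose transporter GLUT3, was at 10.18, 9.84, 10.20, 8.75 and 8.91 on WASP-intact arrays 1 to 5 and 9.18, 9.99, 10.05, 11.77 and 10.88 on WASP-deficient arrays 1 to 5. WASP-deficient arrays 4 and 5 were highest, and the 3 Cd2-high arrays were lowest. Slc2a1, the broadly expressed transporter GLUT1, was at 10.57, 10.60, 10.91, 10.19 and 10.14 on WASP-intact arrays 1 to 5 and 10.08, 10.64, 10.62, 11.50 and 10.91 on WASP-deficient arrays 1 to 5. Its next highest level after WASP-deficient array 4 was 10.91, on a WASP-intact array, so the genotypes overlapped. Slc16a3, the transporter MCT4 that exports lactate, was at 8.22, 8.32, 8.95, 7.98 and 7.84 on WASP-intact arrays 1 to 5 and 8.48, 8.55, 9.40, 9.80 and 8.52 on WASP-deficient arrays 1 to 5. WASP-deficient arrays 3 and 4 exceeded every WASP-intact array, while WASP-intact array 3 exceeded the other 3 WASP-deficient arrays. Pfkfb3, which makes the sugar phosphate that activates phosphofructokinase, was at 7.13, 7.17, 7.69, 8.34 and 8.25 on WASP-intact arrays 1 to 5 and 8.25, 7.62, 7.72, 8.75 and 7.81 on WASP-deficient arrays 1 to 5. Its level on WASP-deficient array 4 was followed by the 3 Cd2-high arrays, the reverse of Slc2a3. Pdk1, a kinase that keeps pyruvate out of the mitochondrion, ran from 9.34 to 10.24, with 9.94 next to the highest array.

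The first enzymes of the pathway varied unevenly. Hk2, the inducible hexokinase that traps glucose as its phosphate, was at 7.49, 7.50, 8.03, 8.36 and 8.14 on WASP-intact arrays 1 to 5 and 7.81, 7.55, 7.55, 8.99 and 7.70 on WASP-deficient arrays 1 to 5. WASP-deficient array 4 stood 1.55-fold above the next, a Cd2-high WASP-intact array. Hk1, the constitutive hexokinase, was at 12.79 to 13.03 by its brighter probe set, which may not be that of Hk1, and at 8.93 to 9.47 by the other. The liver-type phosphofructokinase Pfkl was at 10.06, 10.03, 10.39, 9.41 and 9.38 on WASP-intact arrays 1 to 5 and 9.73, 10.11, 10.12, 10.29 and 10.33 on WASP-deficient arrays 1 to 5. Its 3 Cd2-high arrays were the lowest of the 10. The platelet-type phosphofructokinase Pfkp was at 8.07, 8.12, 8.74, 8.98 and 8.97 on WASP-intact arrays 1 to 5 and 9.23, 8.44, 8.62, 8.84 and 7.26 on WASP-deficient arrays 1 to 5. The same 3 arrays were its highest, and WASP-deficient array 5 was its lowest. In Aldoc, an aldolase best known from brain, the level ran from 7.81 to 9.55, with WASP-deficient arrays 3 and 4 highest at 9.54 and 9.55. Aldoa, the main aldolase of most tissues, ran from 11.60 to 12.41.

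The enzymes of the lower part of the pathway stayed within 1 log2 unit each over the 10 arrays. Pgk1, which makes the first ATP of the pathway, was at 11.30, 11.51, 11.79, 11.82 and 11.86 on WASP-intact arrays 1 to 5 and 11.98, 11.44, 11.59, 12.17 and 11.25 on WASP-deficient arrays 1 to 5. WASP-deficient array 4 was highest and WASP-deficient array 5 lowest. Ldha, the lactate dehydrogenase subunit that HIF induces, was at 12.53, 12.68, 12.85, 12.95 and 12.99 on WASP-intact arrays 1 to 5 and 13.06, 12.83, 12.69, 13.07 and 12.58 on WASP-deficient arrays 1 to 5. The 4 highest arrays, at 12.95 to 13.07, were the Cd2-high arrays and WASP-deficient array 4. Pgam1, the phosphoglycerate mutase, was 11.60 on that array and 10.63 to 11.16 on the others. Pkm, the pyruvate kinase of proliferating cells, was 12.14 there and 11.60 to 11.83 elsewhere. Tpi1, the triose phosphate isomerase, was 11.89 there and 10.95 to 11.73 elsewhere. All of these enzymes had their top value in that one tumour, by margins of 0.011 (Ldha) to 0.45 (Pgam1) on the log2 scale.

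**Figure D3:**
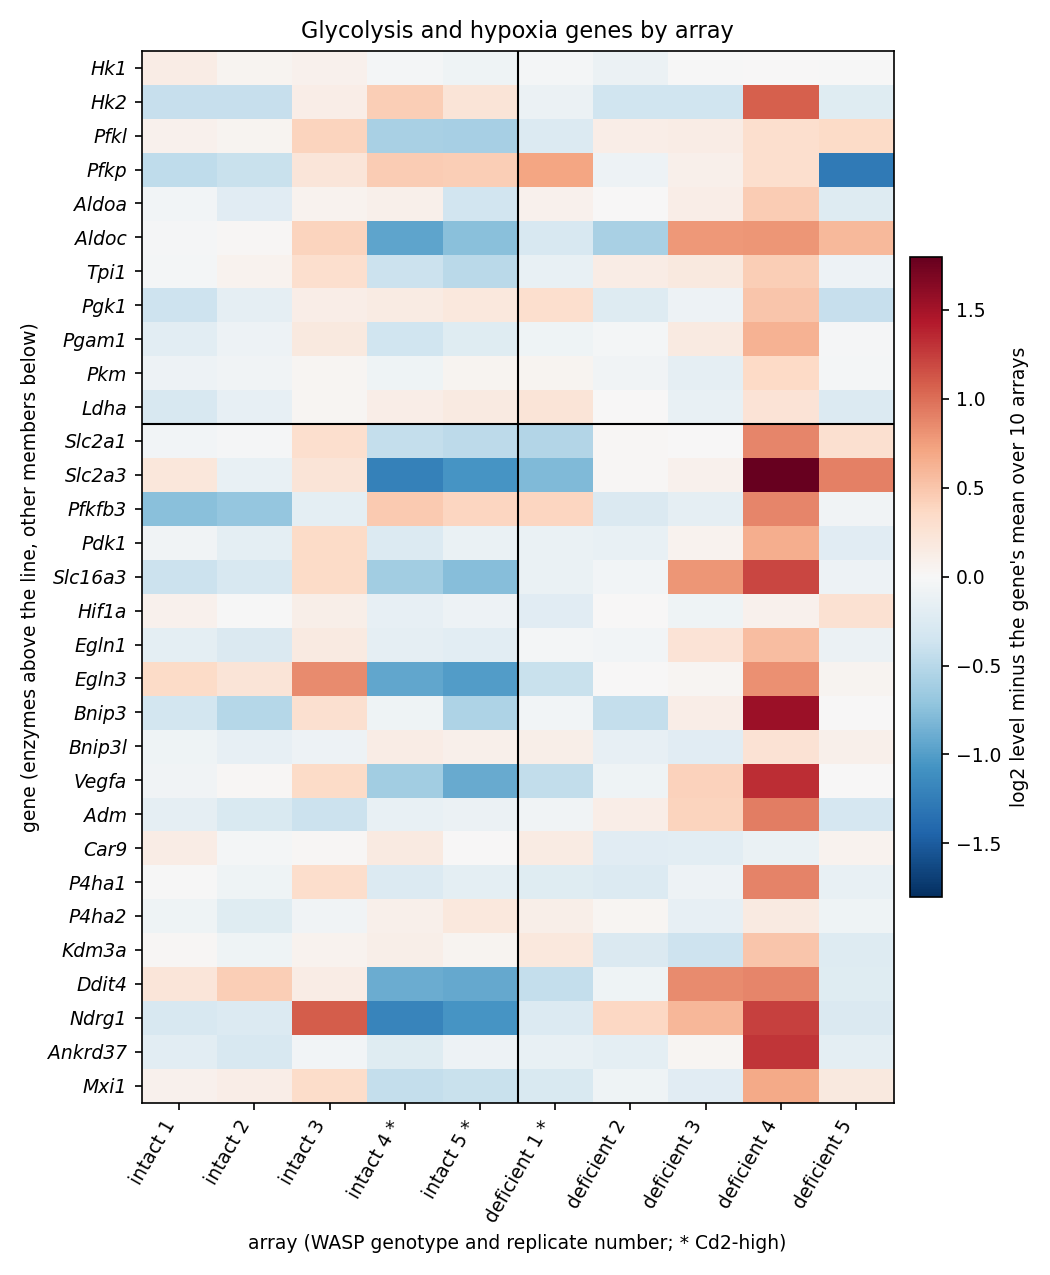
Log2 level of the 31 genes on the 10 arrays, each gene centred on its own mean, ordered by role (colour, log2 units above or below the gene's mean). WASP-deficient array 4 is above the mean in most genes, and the 3 Cd2-high arrays are below it in genes such as Slc2a3, Egln3 and Ddit4.

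Of the oxygen sensors and mitophagy receptors, 3 of 5 were highest on WASP-deficient array 4. Hif1a, the oxygen-regulated HIF subunit, kept to 10.95 to 11.43, and WASP-deficient array 5 was its highest. Egln3, a prolyl hydroxylase that HIF itself induces, was at 10.89, 10.77, 11.39, 9.60 and 9.53 on WASP-intact arrays 1 to 5 and 10.13, 10.55, 10.58, 11.37 and 10.59 on WASP-deficient arrays 1 to 5. WASP-intact array 3 and WASP-deficient array 4 were its highest, so both genotypes reached the same level. Egln1, the main prolyl hydroxylase that marks HIF, ran from 9.35 to 10.16. Bnip3, a mitochondrial receptor for mitophagy, was at 8.76, 8.57, 9.37, 9.01 and 8.54 on WASP-intact arrays 1 to 5 and 9.03, 8.66, 9.20, 10.63 and 9.10 on WASP-deficient arrays 1 to 5. WASP-deficient array 4 stood 2.39-fold above the next, WASP-intact array 3. Its relative Bnip3l ran only from 11.44 to 11.90.

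Among the secreted and pH-regulating targets, Vegfa, the growth factor that draws in blood vessels, was at 8.72, 8.81, 9.13, 8.16 and 7.87 on WASP-intact arrays 1 to 5 and 8.34, 8.71, 9.20, 10.11 and 8.79 on WASP-deficient arrays 1 to 5. WASP-deficient array 4 was highest by 0.91 on the log2 scale, and the 3 Cd2-high arrays were lowest. Adm, which encodes the vasodilator adrenomedullin, was near the filter at 6.38, 6.26, 6.15, 6.41 and 6.44 on WASP-intact arrays 1 to 5 and 6.48, 6.66, 6.95, 7.47 and 6.24 on WASP-deficient arrays 1 to 5. WASP-deficient arrays 2, 3 and 4 were its highest, and WASP-deficient array 5 lay among the WASP-intact arrays. Car9, a carbonic anhydrase widely used as a hypoxia marker, was dim on every array, at 6.35 to 6.71. WASP-deficient array 4 was at 6.43, the eighth of the 10. The collagen prolyl hydroxylase P4ha1 was 10.59 on WASP-deficient array 4 and 9.45 to 10.02 on the others. Kdm3a, a histone demethylase that HIF induces, was 10.37 there and 9.49 to 10.06 on the others.

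The stress genes and growth brakes, 4 of 4, were highest on WASP-deficient array 4. Ankrd37, an ankyrin repeat gene and known HIF target, was at 7.64, 7.54, 7.78, 7.61 and 7.73 on WASP-intact arrays 1 to 5 and 7.70, 7.65, 7.86, 9.11 and 7.65 on WASP-deficient arrays 1 to 5. Of these, 9 arrays lay within 7.54 to 7.86, and WASP-deficient array 4 stood 2.39-fold above the next. Ddit4, which restrains mTORC1 under stress, was at 10.93, 11.15, 10.85, 9.81 and 9.79 on WASP-intact arrays 1 to 5 and 10.28, 10.63, 11.55, 11.59 and 10.49 on WASP-deficient arrays 1 to 5. WASP-deficient arrays 3 and 4 were highest, and the Cd2-high arrays lowest. Ndrg1, a gene long used as a marker of hypoxic tumours, was at 9.48, 9.52, 10.86, 8.58 and 8.71 on WASP-intact arrays 1 to 5 and 9.53, 10.14, 10.37, 11.01 and 9.50 on WASP-deficient arrays 1 to 5. WASP-deficient array 4 and WASP-intact array 3 were highest. Mxi1, a Myc antagonist, ran from 8.71 to 9.82.

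Markers of other cells were read on the same tumour as summed linear intensities. On WASP-deficient array 4 the erythroid sum was 640.3 and the B cell sum 1091.0, both the highest of the 10 arrays, which ran from 334.3 and 564.8. A mean of centred log2 levels, which weights every marker alike, gave another order. For erythroid cells it was 0.35 there and 0.38 on WASP-intact array 4. For B cells it was 0.13 there, below 0.34 on WASP-deficient array 1 and 0.24 and 0.15 on WASP-intact arrays 3 and 4. The B cell markers Cd79a, Ms4a1, Pax5 and Fcer2a lay below the filter. Of the 9 listed erythroid markers only 4 were measured, with Epb42 below the filter. The fibroblast sum was the lowest, at 7948.4, and the T cell sum the ninth of 10, at 18259.4. These sums share Thy1, which is in both marker lists and was lowest on this array, at a log2 level of 11.86. The fibroblast sum thus holds T cell signal as well. The T cell list also holds Cd2, so the Cd2 division enters the T cell sum. The endothelial sum, 3534.8, lay within the range of the other arrays, 3315.4 to 4304.2, as did the macrophage sum, 12389.8, within 8819.0 to 14369.9. The part of these cells in the levels above was not tested.

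Between genotypes, 0 of the 30 tested genes of the set passed the test (limma, Benjamini-Hochberg adjusted p below 0.05 over 12670 genes), where 0.00789% of all genes, Was alone, were called. At an unadjusted p below 0.05 the count was 1 of 30, Slc16a3, against 2.89% of all genes. Slc16a3 had a log2 difference of 0.69 (SE 0.30), with an unadjusted limma p of 0.0431 and an adjusted p of 0.9986. The adjusted p was 0.9986 for all 30. No gene of the set had groups that did not overlap, against 0.324% of all genes for higher and 0.245% for lower in the WASP-deficient tumours.

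The means leaned to the WASP-deficient side without a call: 27 of the 31 genes had a higher mean there, against 48.9% of all genes, with a median log2 difference of 0.21 against -0.0038 for all genes. WASP-deficient array 4 carried much of this: without it 18 of 31 had the higher mean, against 47.0% of all genes, with a median of 0.055. Without WASP-intact array 5 the median was 0.11. With all arrays, Hk1, Pfkp, Car9 and Kdm3a had the lower mean. Of the enzymes 9 of 11 had the higher mean, with a median difference of 0.060, and of the other genes 18 of 20, with a median of 0.26. Without WASP-deficient array 4 these counts were 5 of 11, with a median of -0.012, and 13 of 20, with a median of 0.066. The enzyme median also depended on other single arrays: it was 0.20 without WASP-deficient array 5, 0.13 without WASP-intact array 4, 0.11 without WASP-deficient array 2 or 3 and 0.092 without WASP-intact array 5. The per-array mean of the enzymes was -0.065 ± 0.14 in WASP-intact and 0.065 ± 0.24 in WASP-deficient tumours (log2, SD, n = 5 each). That of the other genes was -0.14 ± 0.23 and 0.14 ± 0.39, so in both the difference was smaller than the SD among WASP-deficient tumours.

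**Figure D4:**
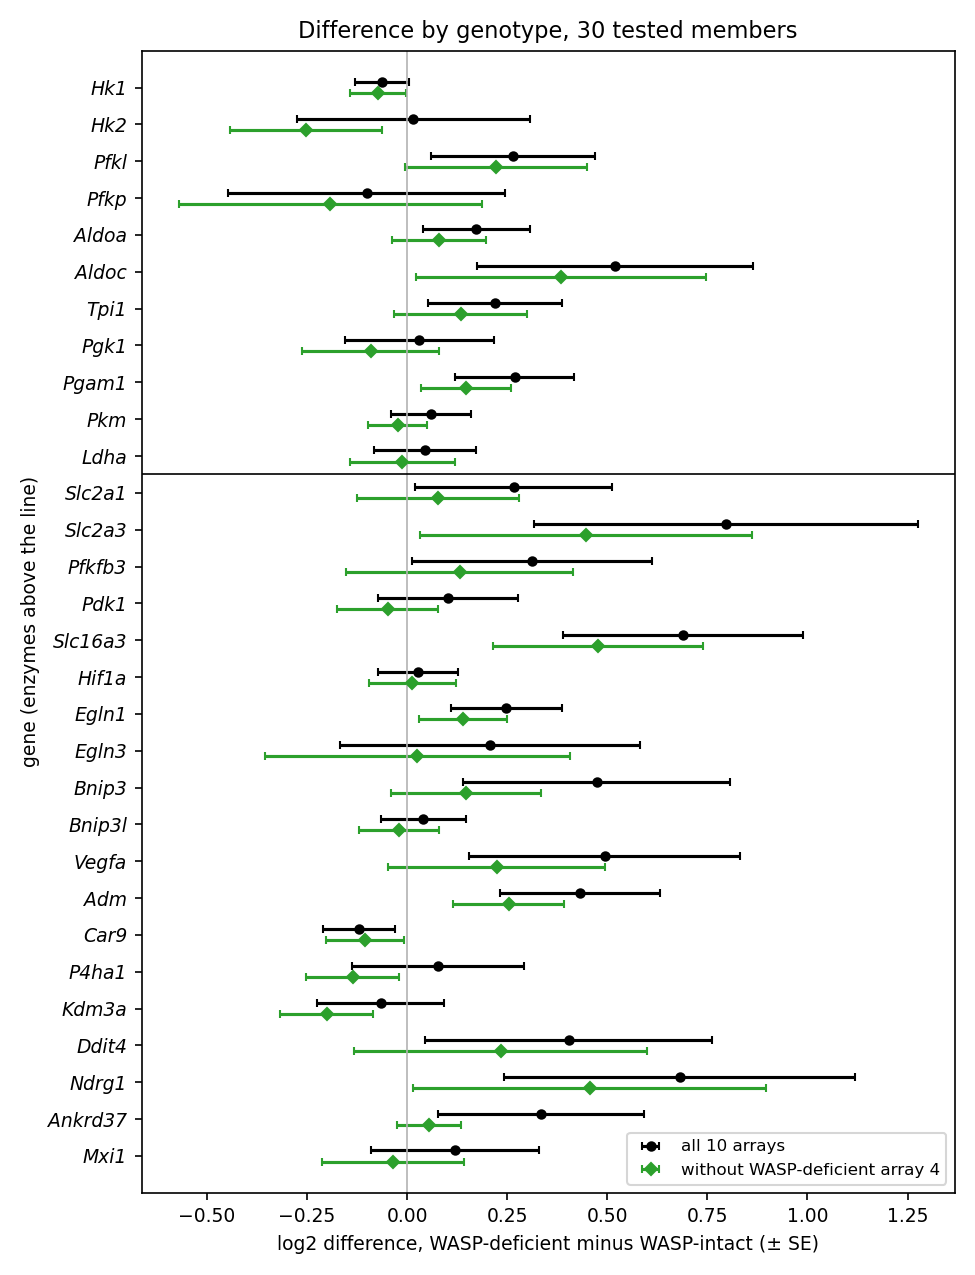
Log2 difference between WASP-deficient and WASP-intact tumours for each gene with its standard error (limma, n = 5 arrays per genotype), with all 10 arrays and without WASP-deficient array 4. Differences run from -0.12 to 0.80 with all arrays, and none passed the test.

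The transporters Slc2a3 and Slc16a3 and the stress gene Ndrg1 had the widest differences. Slc2a3 differed by 0.80 (SE 0.48), Ndrg1 by 0.68 (SE 0.44), Aldoc by 0.52 (SE 0.34) and Vegfa by 0.49 (SE 0.34). Without WASP-deficient array 4 the difference was 0.45 in Slc2a3, 0.48 in Slc16a3 and 0.22 in Vegfa. It was 0.15 in place of 0.47 in the mitophagy receptor Bnip3, and 0.055 in place of 0.33 in Ankrd37. The mean difference of the enzymes went from 0.13 to 0.030, and that of the other genes from 0.28 to 0.11. With the Xist level as a covariate these means were -0.095 and -0.049, with the direction turned. WASP-intact array 3 alone joined intact WASP to low Xist, and no WASP-deficient array had high Xist, so Xist level and genotype can hardly be told apart.

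Between the Cd2-high and Cd2-low arrays, 10 of the 31 genes had levels that did not overlap, or 32.3%, close to the 30.5% of all genes. Since the arrays were divided by a measured level, the values are a description with no test. The higher gene was Pfkp alone, against 14.4% of all genes, and the 9 lower ones, against 16.1%, were Pfkl, Tpi1, Slc2a1, Slc2a3, Hif1a, Egln3, Vegfa, Ddit4 and Mxi1. The genes of the division thus included 1 higher and 2 lower of 11 enzymes, and 0 higher and 7 lower of 20 other genes. Without WASP-deficient array 1, the lone WASP-deficient tumour with high Cd2, 14 of 31 did not overlap, or 45.2%, against 38.6% of all genes under the same omission. Without WASP-deficient array 4 it was also 14, against 33.6% of all genes.

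The phosphofructokinases took opposite sides: Pfkp was at 8.97 to 9.23 on the Cd2-high arrays and 7.26 to 8.84 on the Cd2-low arrays, and Pfkl at 9.38 to 9.73 on the Cd2-high arrays and 10.03 to 10.39 on the Cd2-low arrays. Their mean differences, Cd2-high minus Cd2-low, were 0.76 and -0.68 on the log2 scale. The glucose transporters were both on the low side. Slc2a3 was at 8.75 to 9.18 on the Cd2-high arrays and 9.84 to 11.77 on the Cd2-low arrays, a mean difference of -1.47 or a level 2.77-fold higher on the Cd2-low arrays. Slc2a1 was at 10.08 to 10.19 on the Cd2-high arrays and 10.57 to 11.50 on the Cd2-low arrays. Egln3, the HIF-induced hydroxylase, differed by -1.12, the growth brake Ddit4 by -1.07, Vegfa by -0.95 and Mxi1 by -0.53. Other genes had means on the same side but overlapped: Ndrg1 at -1.19, Aldoc at -0.95 and Slc16a3 at -0.72. On the high side, also with overlap, were Pfkfb3 at 0.59, Pgk1 at 0.31, Hk2 at 0.27 and Ldha at 0.25.

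**Figure D5:**
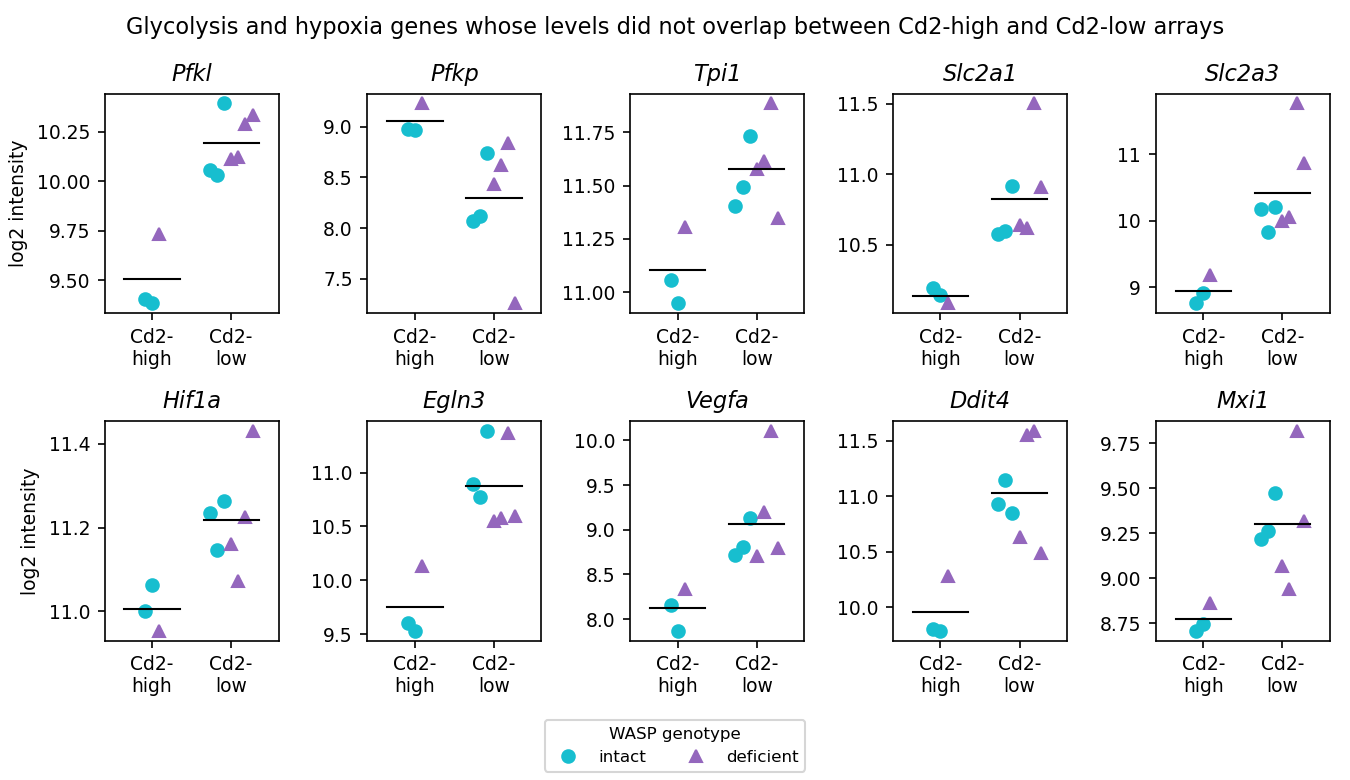
Log2 intensity of the 10 genes whose levels did not overlap between the 3 Cd2-high and the 7 Cd2-low arrays (points, 1 per tumour, shaped by genotype; lines, set means). Pfkp is higher on the Cd2-high arrays and the other 9 are lower.

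The fibroblast marker sum was 12740.2 to 16243.2 on the Cd2-high and 7948.4 to 11450.5 on the Cd2-low arrays, without overlap, and its part in these levels was not tested. This sum includes Thy1, also a T cell mark, whose own levels overlapped between the Cd2 sets. Within the Cd2-low arrays, 3 WASP-intact against 4 WASP-deficient, limma called 0 of these genes, with an adjusted p of 0.9992 for each. There the enzyme mean was -0.034 ± 0.18 in WASP-intact and 0.071 ± 0.28 in WASP-deficient tumours, and that of the other genes -0.00040 ± 0.18 and 0.21 ± 0.41 (log2, SD, n = 3 and 4). The Cd2-high arrays hold 1 WASP-deficient tumour, so a genotype difference within them has no replicate check.

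Some probe sets bear on single genes. In the order of their identifiers, 97.2% of 21550 named probe sets had most of their 20 neighbours on the gene's own chromosome, but those used for Hk1, Pgam1 and Bnip3 did not, so their values may belong to other loci. For Hk1 the other probe set, whose neighbours match, was at 8.93 to 9.14 on the Cd2-high and 9.33 to 9.47 on the Cd2-low arrays, without overlap, where the brighter one overlapped. Its highest level, 9.47, was on WASP-intact array 3, and WASP-deficient array 4 was at 9.37. For Bnip3 the other probe set was 9.77 on WASP-deficient array 4 and at most 8.51 elsewhere, with a genotype difference of 0.42. Pgam1 had no other probe set. Pkm and Bnip3l each had a second probe set, and both were also highest on WASP-deficient array 4. The neighbours of these second probe sets did not match the gene's own chromosome either, so their values may also belong to other loci.

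The wider pathway gave no call by genotype either. Of 30 other glycolysis genes, 27 were measured and 22 tested, with 0 called and 1 at an unadjusted p below 0.05, and 14 had the higher mean in WASP-deficient tumours and 13 the lower. The median log2 difference was 0.012. Of 48 other hypoxia genes, 45 were measured and 39 tested, with 0 called and 3 at an unadjusted p below 0.05, and 29 had the higher and 16 the lower mean, with a median of 0.056. Over all genes tested, 0.00789% were called and 2.89% had an unadjusted limma p below 0.05. A higher mean in WASP-deficient tumours was found in 48.9% of all genes. WASP-deficient array 4 was highest in 7 of the 27 and 17 of the 45, against 24 of the 31 in the set and 17.2% of all genes.

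Of the 45, 1 had groups that did not overlap, and of the 27 other glycolysis genes 0. Over all genes the share was 0.324% for higher and 0.245% for lower in WASP-deficient tumours. The 1 gene was Hmox1, which breaks down heme and answers to both hypoxia and oxidative stress. Hmox1 was at 8.73 to 9.26 in WASP-intact and 9.28 to 10.93 in WASP-deficient tumours. Its log2 difference was 1.08 (SE 0.26, limma adjusted p = 0.9986), and its highest level was again on WASP-deficient array 4. The transferrin receptor Tfrc differed by -0.48, the membrane-binding Anxa2 by -0.41 and the secreted glycoprotein gene Stc2 by 0.40. Of the glycolysis genes, Gpd1 differed by -0.38 and Bpgm, which makes the bisphosphoglycerate of red cells, by 0.38. Pdk4, a relative of Pdk1, differed by -0.77 and the muscle enolase Eno3 by -0.62. Pdk4 and Eno3 were highest on WASP-intact array 4, at 9.29 and 10.53, where the muscle marker sum was 7593.7 against 1054.6 to 1535.5 elsewhere. Without that array the genotype differences of Pdk4 and Eno3 were -0.17 and -0.15. Between the Cd2 sets, 8 of 27 and 14 of 45 did not overlap, or 29.6% and 31.1%, close to the background of 30.5%. The collagen cross-linking enzyme Lox, without overlap, had a mean difference of 1.44, and the gluconeogenic enzyme Fbp1, with overlap, of -1.27. Pdk4, with overlap, had a difference of 1.30, which was 0.37 without WASP-intact array 4. Pdk2 had a difference of -1.18 and Pfkfb4, a relative of Pfkfb3, of -1.05. Of the hypoxia genes, the cyclin gene Ccng2 had a difference of 1.08, the glycogen phosphorylase Pygl of -1.18 and the collagen lysyl hydroxylase Plod1 of -1.17.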

How the data were processed

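RNA of 10 mediastinal lymphomas, 5 per genotype, was hybridised to 1 array each, and groups and replicate numbers were taken from the sample titles. The deposited values are intensities made by the authors with RMA, as the submitters' processing notes state. RMA removes background, makes the distributions of the arrays alike and summarises probes, so differences in RNA amount between tumours cannot be read. Its version was not given in the sources used here. Deposited intensities spanned 3.31 to 15587.9 with array medians of 116.7 to 122.7, a linear scale where log2 had been assumed, so log2 was taken first. The number of arrays limits the precision.

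Of 34760 probe sets, the platform annotation gave 21640 a single symbol, 1321 several, and 11799 were not named. Gene IDs matched RefSeq (GRCm38.p6) for 21553, and 0 symbols changed. Probe sets with a mean under the 40th percentile (log2 6.35) were left out, and the brightest per gene was kept. limma 3.58.1 in R 4.3.3 (lmFit, eBayes, without covariates) was run on 12670 genes with Benjamini-Hochberg adjustment and a threshold of 0.05. The fit was checked only on simulated arrays with independent noise, which held no Cd2 division and no outlying array. Cd2-high arrays have a Cd2 log2 level of 9 or more. Promoters are those of RefSeq, 250 bases before the start. Tables and figures used Python 3.11.15 and matplotlib 3.10.9. The genes and lists were chosen with earlier results of these data known. Named genes are the 34, Was, Cd2 and, per wider list, the 4 with the largest difference by genotype and the 4 between Cd2 sets; Xist and cell markers were named after their values were seen. Alternatives were other filters, probe set rules, offsets, weights, covariates, a replicate block, and leaving out arrays.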

Additional observations from a re-analysis of the deposited data

Results flagged for a closer look

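Extremes of a group of 5 arrays were compared with the gap to their nearest neighbour, over 66 groups (each gene and each mean, by genotype), and 7 stood out where chance gives about 1 in 20. Of these, 5 fell on WASP-deficient array 4: Hk2 at 8.99, Bnip3 at 10.63, P4ha1 at 10.59, Ankrd37 at 9.11 and the mean centred level of the other genes at 0.82. The remaining extremes fell on WASP-intact array 3, where Egln1 was at 9.76 and the mean centred level of the enzymes at 0.18. The genes are not independent of each other, since they were read on the same tumours, and the means are built from the same genes. The count of 7 therefore cannot be judged against that rate.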

How the results depend on the processing

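The count of glycolysis and hypoxia genes called by genotype was 0 under all 21 alternatives. Over 627 values of single genes under the alternatives, 618 lay within 1 SD of the reported one, 0 were called, and the lowest adjusted p (limma) was 0.659. The sign held under every alternative in 9 of 30 genes and changed under at least 1 in 21. With Xist as a covariate the mean difference of the enzymes was -0.095, that of the other genes -0.049, the count over all genes 0, and Was differed by -1.06 (limma adjusted p = 0.376). Xist level and genotype can hardly be told apart on these arrays, so this fit cannot separate them. With a replicate block the count over all genes was 0 and Was differed by -1.14 (limma adjusted p = 0.136), while no call among the set changed. Over 5 pairs with the same replicate number, the correlation of deviations ran from -0.71 to 0.37, and 0 WASP-deficient arrays were closest to their own number. Pairs 1, 4 and 5, at -0.71, -0.41 and -0.37, each join a Cd2-high to a Cd2-low array. Pairs 2 and 3, both of Cd2-low arrays, were at 0.37 and 0.285. The Cd2 division thus enters these values, and whether the numbers pair the tumours cannot be read from them. Without the Cd2-high arrays 2 genes were called. With single arrays left out, the count over all genes ran from 1 to 4 (4 without WASP-intact array 3, 2 without WASP-deficient array 1), the enzyme mean from 0.030 to 0.19, and the mean of the other genes from 0.11 to 0.36. The count of the 31 genes without overlap between Cd2 sets ran from 10 to 14 (32.3% to 45.2%) with single arrays left out, while the share of all genes ran from 30.9% to 38.6%. The probe sets chosen by their neighbours were an alternative added after the data were seen, and changed no call. Signal limits Car9, Adm and P4ha2, which lay near or under the filter.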
